A study of Caenorhabditis elegans with 4 samples.

Results

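Genes of GABA signalling were measured by RNA-seq in larvae of the nematode Caenorhabditis elegans, taken whole, in wild type and in animals carrying the dve-1 allele uf171. The set held 10 genes chosen by name for their place in GABA neurons or as GABA receptors, namely unc-25, unc-47, unc-46, snf-11, gta-1, unc-30, ttr-39, unc-49, exp-1 and gab-1. All 10 were found among the 41614 genes of the deposited table. The study compared 2 wild type libraries with 2 libraries of the dve-1 mutant, each from about 1200 larvae grown at 25 °C on plates with the E. coli strain OP50. The labels give no other allele or agent, and no transgene. They name the stage as L4, the last larval stage, while the protocol describes collection of L1 larvae, so the stage is given as labelled. DVE-1 has a homeodomain and is best known for its part in the response to unfolded proteins in mitochondria. The labels do not say whether replicates were separate cultures, so the p-values speak to differences among these 4 libraries alone, and their spread may be technical.

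GABA is the main inhibitory transmitter at the worm's neuromuscular junction. D-type motor neurons of the nerve cord make it from glutamate, load it into vesicles and release it onto body wall muscle, where a GABA-gated chloride channel relaxes the muscle opposite to a contracting stretch. A smaller set of GABA neurons drives the enteric muscles, where GABA excites through a cation channel. The GABA neurons are few among the cells of a whole animal, and in such bulk RNA fewer cells of a type and less RNA per cell cannot be told apart.

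Values were FPKM, which divide a transcript's fragments by its length and by the library's mapped fragments. The total count per library was not used here, and the steps between low values put it at about 14000000 to 15300000 fragments or a multiple of that, with fragment numbers below taken at the lower depth. dve-1 itself read 14.19 and 13.87 FPKM in wild type against 22.98 and 21.13 in the mutant. Nothing in the labels calls uf171 a deletion, so this level is no check of the genotypes. Over 14664 genes tested with limma, 19 passed an adjusted p of 0.05 (0.13% of those tested), 10 higher and 9 lower in the mutant. Summed markers of neurons at large were close together, at 274 and 271 FPKM over 7 genes in wild type against 275 and 252 in mutant replicates 1 and 2. Among them rab-3, a synaptic vesicle GTPase, was listed at 0 in mutant replicate 1, while wild type had 4.48 and 9.72 FPKM and mutant replicate 2 had 4.29 FPKM. unc-31, for dense-core vesicle release, was low in wild type replicate 2 instead, at 4.83 FPKM against 17.6 to 19.8 FPKM in the other libraries, and 5 of the 7 markers were lower in the mutant by sign. Body wall muscle markers, 5 genes, summed to 1987, 2677, 2507 and 2131 FPKM in the same order. The mutant libraries stood apart from each other in germline genes. Mutant replicate 2 had the highest summed oocyte markers, at 404 FPKM over 5 genes against 102 to 168 FPKM in the other libraries. Mutant replicate 1 had the lowest summed sperm markers, at 975 FPKM over 5 genes against 1862 to 2807 FPKM.

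**Figure D1:**
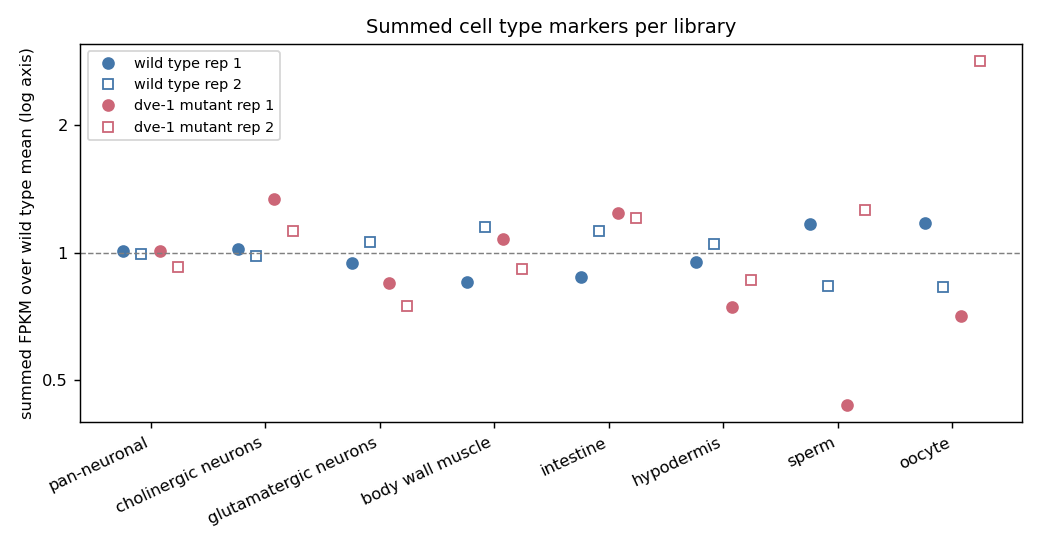
Summed FPKM of each cell type marker list in each library, divided by the mean of the wild type libraries, on a log axis. The pan-neuronal list lies between 0.925 and 1.01 and the muscle list between 0.852 and 1.148, while the oocyte list is highest in mutant replicate 2 and the sperm list lowest in mutant replicate 1.

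None of the 10 GABA genes passed the threshold, against 0.13% of all tested genes. They are all protein-coding, a class in which 1 of 13479 tested genes passed in the same fit. All 10 reached 1 FPKM in 2 or more libraries and so entered the test. By limma, 1 of 10 lay at an unadjusted p under 0.05, ttr-39, where 4.6% of all tested genes did. Among the 13479 protein-coding genes 467 did. Of their 15 accessions tested singly, 0 passed (0.0526% of all accessions tested did) and 1 lay at an unadjusted p under 0.05 (5.07% of all). The wild type and mutant values did not overlap for 4 of the 10, with unc-25, unc-46 and ttr-39 lower and unc-30 higher in the mutant. That compares with 28.1% of all tested genes, 16.2% lower and 11.9% higher. By sign alone 6 of 10 were lower, with a median log2 fold change of -0.10, where 53.8% of all tested genes were lower with a median of -0.02. Fold changes here are differences in log2(FPKM + 1), the mutant less wild type, and understate changes of low genes. With 2 libraries against 2, an exact permutation test of a single gene has 6 assignments and its smallest two-sided p is 2 in 6, so the fit across all genes was used.

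**Figure D2:**
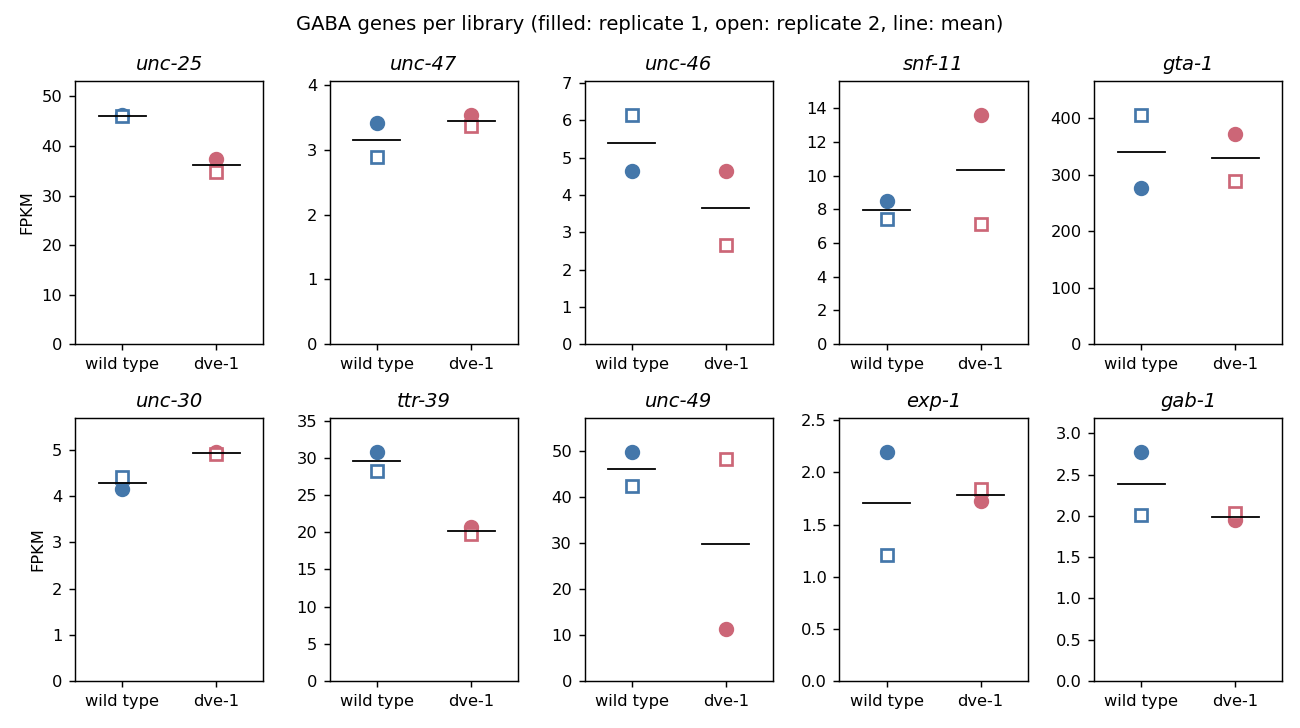
FPKM of the 10 GABA genes in each library, with a line at the mean of each genotype and each axis starting at 0. The values of unc-25 and ttr-39 lie lower in the mutant with close replicates, and unc-49 has 1 low mutant library at 11.3 FPKM.

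The level of the genes spanned a wide range. FPKM is per length, so levels can be set beside each other. They are levels in whole animals and do not show which cells carry a transcript. gta-1 stood highest, with a mean over the 4 libraries of 335 FPKM. It was followed by unc-25 at 41.1, unc-49 at 37.9 and ttr-39 at 24.9 FPKM, and the ranges over libraries of unc-25, unc-49 and ttr-39 overlapped from each to the next. In mutant replicate 1 unc-49 read 11.3 FPKM, against 42.3 to 49.7 FPKM in the other libraries. That library lowered the mean of unc-49, and the overlap of unc-49 with ttr-39 rested on it. snf-11 came next at 9.15 FPKM, apart from its neighbours in that order. unc-30, unc-46 and unc-47 followed at 4.61, 4.52 and 3.30 FPKM, again with ranges that overlapped from each to the next. gab-1 and exp-1 were lowest, at 2.19 and 1.74 FPKM, and overlapped each other.

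The synthesis and vesicle loading of GABA rest on unc-25, unc-47 and unc-46. unc-25 (Y37D8A.23, chromosome III, 12942651 to 12949883 on the plus strand, WBcel235) encodes glutamic acid decarboxylase, the enzyme that makes GABA. It read 46.2 and 46.1 FPKM in wild type against 37.4 and 34.8 in the mutant. Both mutant libraries lay below both wild type libraries, which differed from each other by less than 0.1 FPKM. The means were 46.1 ± 0.053 and 36.1 ± 1.78 FPKM (SD, n = 2), a ratio of 0.783. For unc-25 the log2 fold change was -0.35 (SE 0.15, 95% interval -0.78 to 0.09, limma adjusted p = 0.9995).

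A pair of transcript accessions of unc-25 carried its signal, and a further one was listed at 0 in the 4 libraries. NM_001027661 read 25.9 and 18.9 FPKM in wild type against 20.7 and 15.3 in the mutant. NM_067288 read 20.2 and 27.2 against 16.7 and 19.5 FPKM. The first of them overlapped between genotypes and the second did not, while their sum was steadier than either between replicates. NM_001027661 held 56.2% of the gene in wild type replicate 1 and 55.3% in mutant replicate 1, but 41.0% and 44.0% in replicate 2 of each, so the division differed more within a genotype than between genotypes.

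unc-47 (T20G5.6, chromosome III, 10183762 to 10186260 on the minus strand) encodes the vesicular GABA transporter and has 1 annotated transcript of 1570 nucleotides in 7 exons. It read 3.41 and 2.89 FPKM in wild type against 3.54 and 3.37 in the mutant. The groups overlapped, with wild type replicate 2 the lowest of the 4 libraries. Its log2 fold change was 0.10 (SE 0.23, 95% interval -0.54 to 0.75). At the estimated depth these values correspond to about 80, 70, 79 and 74 fragments.

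unc-46 (C04F5.3, chromosome V, 5097075 to 5099025 on the minus strand) encodes a LAMP-like protein that sorts UNC-47 to synaptic vesicles. It read 4.65 and 6.13 FPKM in wild type against 4.63 and 2.65 in the mutant, about 83, 112, 79 and 44 fragments. Wild type replicate 1 and mutant replicate 1 were almost equal, and mutant replicate 2 was lowest. A log2 fold change of -0.49 (SE 0.33, 95% interval -1.43 to 0.45) became -0.17 without mutant replicate 2. The gene shares 61 nucleotides with C04F5.2 on the same strand, which was listed at 0 in 3 libraries and read 0.168 FPKM in mutant replicate 2.

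Reuptake and breakdown were represented by snf-11 and gta-1. snf-11 (T03F7.1, chromosome V, 11305070 to 11308446 on the minus strand) encodes the plasma membrane GABA transporter. It read 8.49 and 7.43 FPKM in wild type against 13.6 and 7.12 in the mutant, about 268, 241, 412 and 212 fragments. Mutant replicate 1 was the highest library and mutant replicate 2 the lowest, so the mutant values enclosed those of wild type. A log2 fold change of 0.28 (SE 0.37, 95% interval -0.75 to 1.32) turned to -0.14 without mutant replicate 1.

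gta-1 (K04D7.3, chromosome IV, 10180660 to 10183865 on the plus strand) encodes GABA transaminase, which breaks GABA down. It read 276 and 405 FPKM in wild type against 371 and 289 in the mutant, with the mutant values inside the wild type range. This gave a log2 fold change of -0.03 (SE 0.27, 95% interval -0.78 to 0.72). Its accessions NM_001307162 and NM_069461 both read lower in wild type replicate 1 and mutant replicate 2 than in the other libraries. NM_001307162 held 68.4% to 76.8% of the gene across libraries. The last 24 nucleotides of the gene overlap ptrg-1 on the opposite strand, which stood at 2.31 to 3.10 FPKM.

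Identity of the D-type neurons was read from unc-30 and ttr-39. unc-30 (B0564.10, chromosome IV, 13118977 to 13124406 on the plus strand) encodes a Pitx-type homeodomain factor that activates unc-25 and unc-47 in these neurons. It read 4.15 and 4.40 FPKM in wild type against 4.95 and 4.91 in the mutant. The mutant values lay above wild type without overlap, with means of 4.28 ± 0.177 and 4.93 ± 0.032 FPKM (SD, n = 2). For unc-30 the log2 fold change was 0.17 (SE 0.21, 95% interval -0.43 to 0.77, limma adjusted p = 0.9995).

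The steady sum of unc-30 hid accessions that were not steady. NM_001026105 read 2.43 and 3.39 FPKM in wild type against 3.15 and 0.441 in mutant replicates 1 and 2, and was the only one of 4 above 0 in the 4 libraries. NM_001026106 read 1.73 and 2.89 FPKM in wild type replicate 1 and mutant replicate 2 and was listed at 0 in the others. NM_001268772 read 1.02 and 1.80 FPKM in wild type replicate 2 and mutant replicate 1 and was listed at 0 in the others. NM_001268771 read 1.58 FPKM in mutant replicate 2 and was listed at 0 in the other 3. With sums over accessions above 0 in all 4 libraries, an alternative added with the data in view, the log2 fold change of unc-30 was -0.66 (SE 0.56), opposite in sign.

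ttr-39 (C04G2.1, chromosome IV, 10088367 to 10089877 on the minus strand) is a transthyretin-related gene whose promoter is widely used to drive transgenes in D-type motor neurons. It read 30.8 and 28.3 FPKM in wild type against 20.7 and 19.7 in the mutant. The gap between genotypes was larger than that between replicates in either, with means of 29.5 ± 1.79 and 20.2 ± 0.713 FPKM (SD, n = 2) and a ratio of 0.684. For ttr-39 the log2 fold change was -0.52 (SE 0.17, 95% interval -1.01 to -0.04, limma unadjusted p = 0.0393, adjusted p = 0.989), which placed it 583rd by p among the tested genes. It ranged from -0.58 to -0.46 with each library left out in turn. The signal sat on accession NM_001268531, while NM_001268532 was listed at 0 in the 4 libraries. The end of ttr-39 shares 71 nucleotides with ndc-80 on the opposite strand, and whether the libraries kept strand is not given in these sources. ndc-80, a kinetochore gene, read 35.3 and 33.7 FPKM in wild type against 33.2 and 46.1 in the mutant, with groups that overlapped.

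The other genes marking D-type neurons did not share the position of ttr-39. The neuropeptide gene flp-13 read 95.8 and 83.8 FPKM in wild type against 85.4 and 83.3 in the mutant, with a log2 fold change of -0.09 (95% interval -0.51 to 0.34). flp-11, a neuropeptide gene expressed in several neuron types, read 300.4 and 283 against 264 and 290 FPKM, with a log2 fold change of -0.07 (95% interval -0.44 to 0.30). oig-1, which encodes an immunoglobulin-domain protein, read 8.67 and 10.1 against 10.6 and 7.27 FPKM. flp-13 and oig-1 changed sign when a single library was left out. acr-12, an acetylcholine receptor subunit through which D-type neurons are excited, read 3.13 and 2.37 FPKM in wild type against 4.04 and 3.24 in the mutant. Its groups did not overlap, with a log2 fold change of 0.31 (SE 0.26, limma adjusted p = 0.9995). Differences between these genes in their response to genotype were not tested.

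Among the receptors, unc-49 had the largest fold change of the 10 genes, and it rested on 1 library. unc-49 (T21C12.1, chromosome III, 10520762 to 10532705 on the plus strand) encodes the GABA-gated chloride channel of body wall muscle, with several subunits made by alternative splicing. It read 49.7 and 42.3 FPKM in wild type, whereas mutant replicate 1 had 11.3 FPKM and mutant replicate 2 had 48.3 FPKM. Mutant replicate 1 lay 3.73-fold below the lowest of the other libraries, while mutant replicate 2 lay inside the wild type range. The means were 46.002 ± 5.22 and 29.8 ± 26.1 FPKM (SD, n = 2). On the log2 scale the fold change was -0.93 (SE 0.74, 95% interval -3.02 to 1.17, limma adjusted p = 0.9995), and 0.07 without mutant replicate 1. Without mutant replicate 2 it was -1.92 (adjusted p = 0.288).

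That gap came from a single accession. Of 13 annotated unc-49 accessions 7 were in the table, and 2 of them were above 0 in any library. NM_001083179 read 39.7 and 34.0 FPKM in wild type and 40.6 FPKM in mutant replicate 2, or 80.0%, 80.3% and 84.0% of the gene, and was listed at 0 in mutant replicate 1. NM_001027613 read 9.95 and 8.34 FPKM in wild type against 11.3 and 7.72 in mutant replicates 1 and 2, and so was highest in the library where the other was at 0. Taken alone, NM_001027613 had a log2 fold change of 0.04 (SE 0.29, 95% interval -0.81 to 0.88). Which splice form each accession stands for is not given in the annotation tables used here.

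An exact 0 in such a table can be a failed estimate, so the same pattern was counted across the table. Among 4831 protein-coding accessions that reached 30 FPKM in 3 or more libraries, 20 (0.414%) were listed at 0 in mutant replicate 1 with at least 30 FPKM in the other 3. The corresponding counts were 8, 12 and 15 for wild type replicates 1 and 2 and mutant replicate 2. At the level of genes, 82 of 10694 (0.767%) with at least 5 FPKM in the other 3 libraries lay at least 3-fold below the lowest of them in mutant replicate 1. It was 54, 66 and 37 genes for wild type replicates 1 and 2 and mutant replicate 2. A drop of this kind was found in each of the 4 libraries, most often in mutant replicate 1 for accessions and for genes alike. The cause of the drop in unc-49 was not tested.

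**Figure D3:**
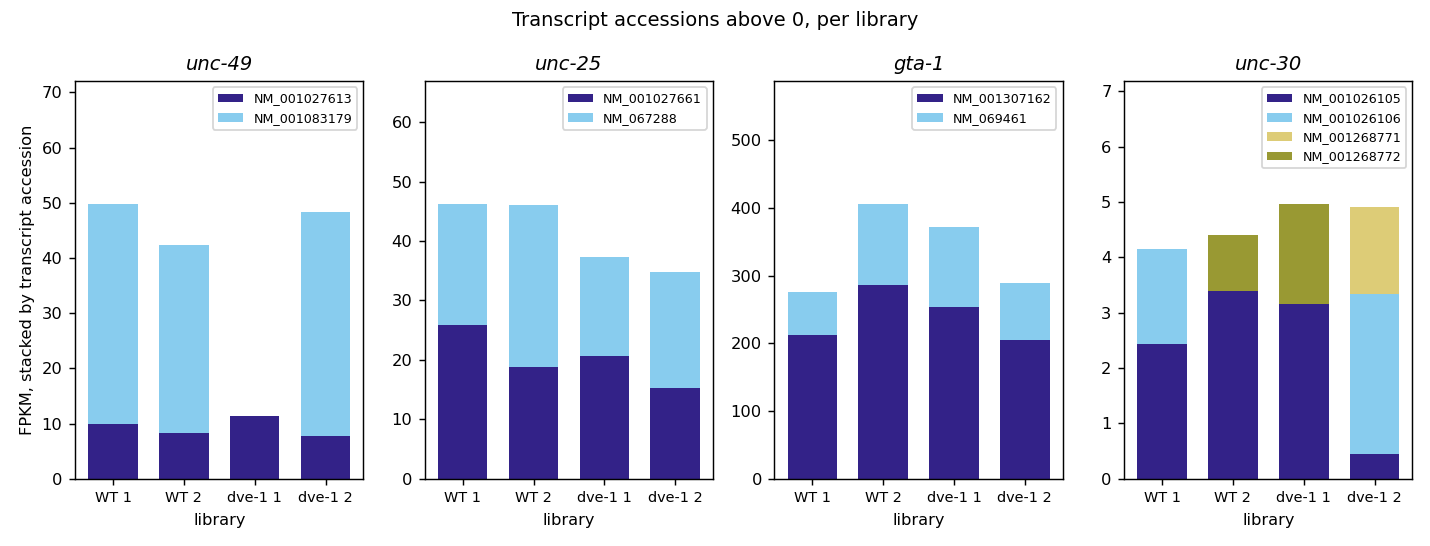
FPKM of each transcript accession above 0, stacked per library, for unc-49, unc-25, gta-1 and unc-30. The unc-49 accession NM_001083179 is absent from the stack of mutant replicate 1, and the accessions of unc-30 change from library to library under a sum of 4.15 to 4.95 FPKM.

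exp-1 and gab-1, the other receptors of the set, were near the low end of measurement. exp-1 (H35N03.1, chromosome II, 6157144 to 6161094 on the minus strand) encodes the excitatory GABA-gated cation channel of the enteric muscles, in 16 exons. It read 2.19 and 1.21 FPKM in wild type against 1.73 and 1.84 in the mutant, about 58, 33, 44 and 46 fragments. The mutant values lay inside the wild type range, and the log2 fold change was 0.07 (SE 0.30, 95% interval -0.78 to 0.91). Its last 41 nucleotides overlap abts-3 on the opposite strand.

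gab-1 (ZC482.1, chromosome III, 12771868 to 12779726 on the minus strand) encodes a GABA receptor subunit. It read 2.77 and 2.01 FPKM in wild type against 1.96 and 2.03 in the mutant, about 73, 55, 50 and 50 fragments. Wild type replicate 1 was highest and the other 3 libraries were close together. For gab-1 the log2 fold change was -0.17 (SE 0.25, 95% interval -0.89 to 0.55). The next annotated gene upstream of it, 5427 nucleotides away with no gene between, is lgc-37, another GABA receptor subunit gene, transcribed in the opposite direction. lgc-37 read 1.67 and 1.42 FPKM in wild type against 1.38 and 1.09 in the mutant, with a log2 fold change of -0.19 (95% interval -0.88 to 0.50). Of the 10 genes, 4 lie on chromosome III, 3 on IV, 2 on V and 1 on II.

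The wider pathway added 23 genes for GABA metabolism, GABA neuron transcription factors, D-type markers, ionotropic and metabotropic receptors and receptor clustering. Of these 21 were tested, and 0 passed with limma in either direction, with 0 at an unadjusted p under 0.05. For 6 of the 21 the mutant values lay lower without overlap and for 1 higher, 33.3% beside 28.1% of all tested genes. By sign 5 were higher and 16 lower, with a median log2 fold change of -0.09, where 53.8% of all tested genes were lower with a median of -0.02. Over all 31 pathway genes tested, the 10 included, the median was also -0.09. With 1 library left out that median ran from -0.19, without wild type replicate 2, to 0.037, without mutant replicate 2, so its sign turned. The smallest unadjusted p belonged to nhr-67, a nuclear receptor, at 2.51 and 2.98 FPKM in wild type against 2.18 and 1.84 in the mutant, with a log2 fold change of -0.32 (limma adjusted p = 0.9995).

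Of the 7 transcription factors of GABA neurons tested, 3 (nhr-67, alr-1 and elt-1) had lower values in the mutant without overlap. The 1 that was higher without overlap was unc-30. The shares over all tested genes were 16.2% lower and 11.9% higher, and so short a list was not tested as a set. The homeodomain gene alr-1 read 5.99 and 5.05 against 4.27 and 4.35 FPKM. The GATA factor elt-1, which also acts in the epidermis, read 21.2 and 17.3 against 14.99 and 16.6 FPKM, and the summed markers of hypodermis, 5 genes, were 1476 and 1627 FPKM in wild type against 1154 and 1339 in the mutant (4 of 5 lower by sign). In that list the collagen gene col-19 ran apart, at 397 FPKM in mutant replicate 2 and 8.51 to 35.96 FPKM in the other libraries. The other genes of the list, dpy-7, rol-6, elt-3 and bli-1, were each lowest in mutant replicate 2. The sum of 1339 FPKM in that library thus rested in part on col-19. The part of hypodermis in the elt-1 values was not tested. The Iroquois homeobox gene irx-1 read 16.1 and 14.1 against 17.6 and 15.995 FPKM, overlapping between genotypes. The LIM homeobox gene lim-6 overlapped too, at 12.6 and 9.53 FPKM in wild type against 9.97 and 10.98 in the mutant. So did the nuclear receptor unc-55, at 2.89 and 1.55 against 2.75 and 1.56 FPKM. tab-1, at 0.422 to 1.36 FPKM, was not tested because of its low level.

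The 6 ionotropic receptor genes tested had a median log2 fold change of -0.18, with 5 lower by sign. Over all tested genes 53.8% were lower, with a median of -0.02. Of the 5 lower genes, unc-49 (-1.92 to 0.07) and lgc-38 (-0.27 to 0.07) changed sign when a library was left out. lgc-35, a GABA-gated cation channel, read 1.97 and 1.83 FPKM in wild type against 1.40 and 1.54 in the mutant, without overlap (log2 fold change -0.23, 95% interval -0.88 to 0.42). lgc-36 read 0.076 and 0.037 FPKM in wild type against 0.434 and 0.201 in the mutant, about 2, 1, 10 and 5 fragments. It was higher without overlap but was not tested because of its low level. The metabotropic receptor genes gbb-1 and gbb-2 had log2 fold changes of -0.22 and -0.04, each with groups that overlapped. With each library left out, gbb-1 ran from -0.61 to 0.17 and gbb-2 from -0.23 to 0.14, so neither kept its sign. The 5 genes for clustering of receptors at the neuromuscular junction, among them the secreted organizer madd-4 and the neuroligin nlg-1, ranged from -0.25 to 0.17. The lower end was frm-3, a FERM-domain gene, which read 3.42 and 3.84 against 3.88 and 2.11 FPKM.

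**Figure D4:**
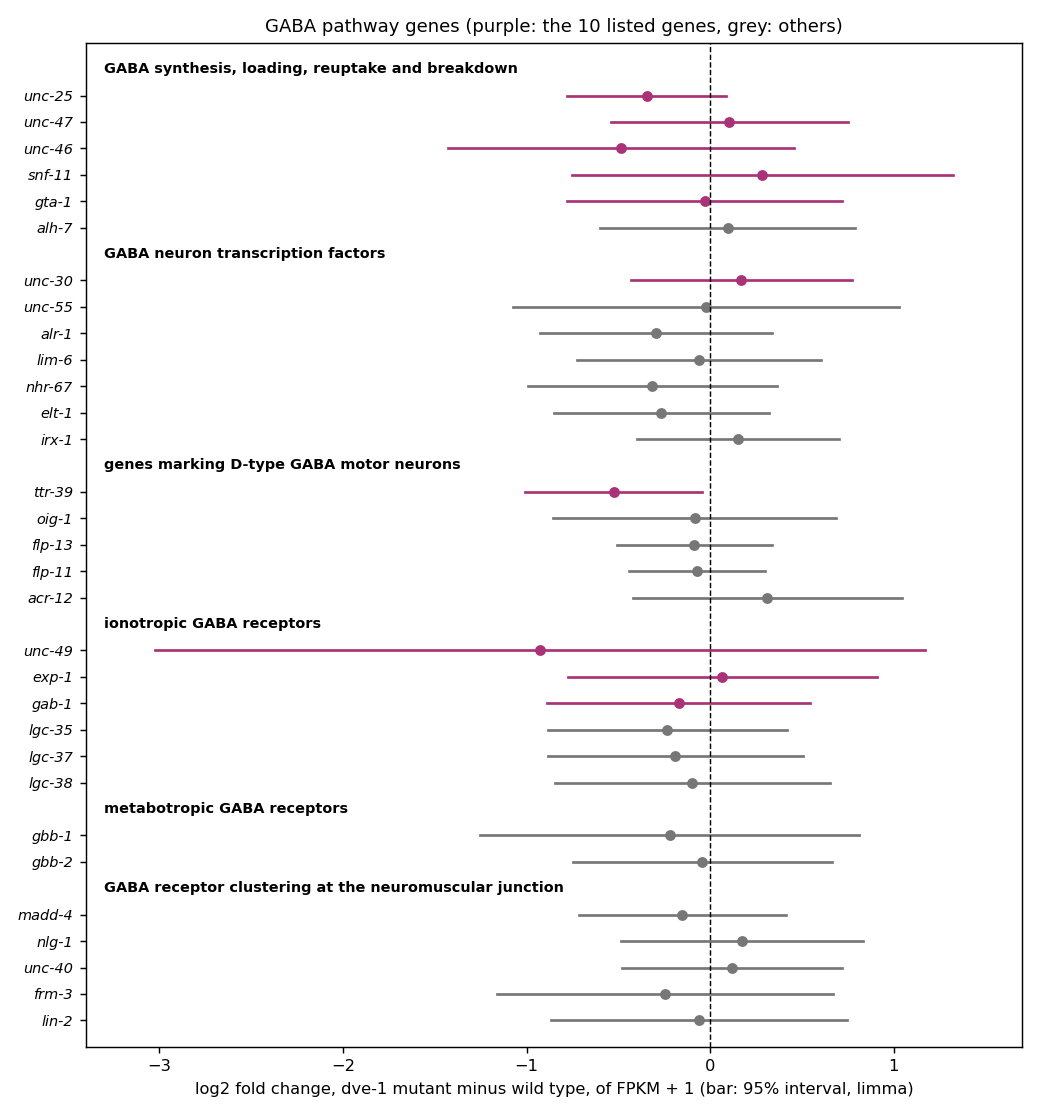
Log2 fold change of FPKM + 1, dve-1 mutant minus wild type, with its 95% limma interval for the 31 tested genes of the GABA pathway. The interval of ttr-39, from -1.01 to -0.04, is the one that does not include 0, before adjustment over all genes, and that of unc-49 is the widest.

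Each gene's reading with 1 library left out showed which values rested on a single library. unc-25, unc-47, unc-46, ttr-39 and gab-1 kept their sign in the 4 fits and in 9 other settings. Of those settings, the ones that changed only the trend, the filter, the gene class or a block could not move a fold change. unc-25 ranged from -0.40 to -0.30 when each library was left out, unc-47 from 0.014 to 0.19, unc-46 from -0.80 to -0.17 and gab-1 from -0.33 to -0.01. unc-30 also kept its sign in these 4 fits, at 0.13 to 0.20. The groups of unc-30, unc-25, unc-46 and ttr-39 did not overlap, so leaving out 1 library could not turn their sign. snf-11, gta-1, unc-49 and exp-1 changed sign in at least 1 of them.

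**Figure D5:**
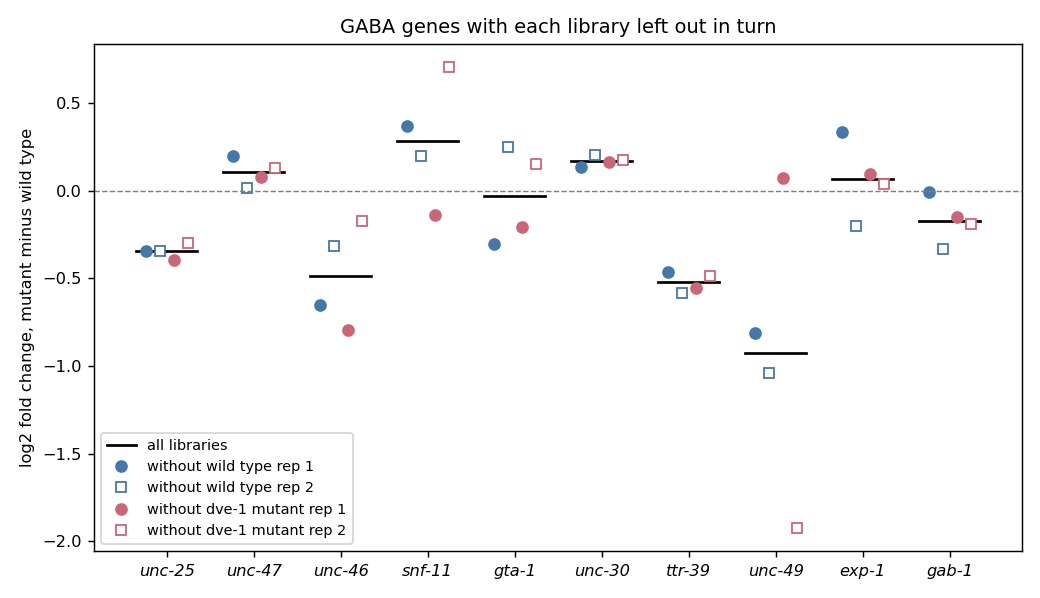
Log2 fold change of the 10 GABA genes, dve-1 mutant minus wild type, with all libraries (line) and with each library left out (points). unc-25, ttr-39 and unc-30 stay close to their line, and unc-49 moves from -1.92 to 0.07 depending on the mutant library kept.

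The genes whose profile over the 4 libraries was closest to that of unc-25 and of unc-49 were listed among 10976 protein-coding genes with a mean of at least 5 FPKM. Likeness was the root mean square difference of mean-centred log2(FPKM + 1), and over 4 libraries it is a description. For unc-25 the 5 closest were F53A9.8, ncs-3, gna-1, tppp-1 and tbca-1, at 0.0098 to 0.021. The closest, F53A9.8, read 465, 462, 380 and 349 FPKM, and ncs-3, a neuronal calcium sensor, read 21.9, 22.2, 18.1 and 16.4 FPKM. Whether the 5 share a cell type was not tested. For unc-49 the 5 closest were T05C12.15, Y65B4A.7, Y45G5AM.6, etfb-1 and Y39F10C.3, at 0.099 to 0.145. etfb-1, a subunit of the mitochondrial electron transfer flavoprotein, read 2011 and 2163 FPKM in wild type against 511 and 2063 in mutant replicates 1 and 2. In 3 of these 5 genes, as in unc-49, an accession was listed at 0 in mutant replicate 1 and above 0 in the other libraries. The remaining genes, T05C12.15 and Y39F10C.3, had 1 accession each, above 0 there, and so could not show this. All 5 were picked for a profile low in mutant replicate 1, so the count follows in part from that choice.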

How the data were processed

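RNA-seq of total RNA from whole larvae gave 4 libraries, 2 per genotype, grouped by sample names. The authors deposited 1 value per RefSeq accession and library, read as FPKM from the values, since the header names no unit. TopHat2, Cufflinks and ce11 are listed in the submitters' processing notes; versions, settings and strand handling were not given in these sources. Of 52491 accessions, 47645 (90.8%) matched RefSeq's WBcel235 annotation with versions ignored, and FPKM were summed per gene, so a gene with unmatched isoforms is understated. Coordinates, lengths and overlaps came from Ensembl release 115 (WBcel235, the ce11 coordinates).

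A trended limma fit (version 3.58.1, R 4.3.3) compared log2(FPKM + 1) over the 14664 genes that reached 1 FPKM in 2 or more libraries, two-sided, with Benjamini-Hochberg adjustment over all of them; 17107 accessions were fitted likewise. There were 3.84 moderated degrees of freedom, and the procedure was tested on simulated data. Depth was estimated from 1509 single-transcript genes, where the best step between 10000000 and 20000000 put 65.2% to 69.1% of low values no further than 0.1 from a whole fragment; this assumes scaling to mapped fragments alone, a multiple of that depth could not be told apart, and fragment numbers cover counting error only. Alternatives covered pseudocount, trend, scaling, filters, gene class, single accessions, a replicate block and each library left out. Sums over accessions above 0 in all 4 libraries and a crossed pairing were added after the data were seen.

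The members and lists were chosen with earlier results of these data known. Named genes were the 10 members with their accessions, the 8 other pathway genes with the smallest unadjusted p, and the 5 closest profiles to unc-25 and unc-49; others, such as flp-13, flp-11, oig-1, madd-4, nlg-1, gbb-1, gbb-2 and the overlapping genes, were named after their values were seen. The marker genes snb-1, unc-17 and unc-15 were not analysed here. Markers of the intestine summed to 3651 and 4673 FPKM in wild type against 5151 and 5015 in the mutant. Those of cholinergic neurons summed to 21.5 and 20.7 against 28.2 and 23.7 FPKM, with 2 genes higher and 2 lower by sign. Among them ace-2 read 12.6 and 12.5 against 19.4 and 14.9 FPKM, while unc-3 was lower without overlap, at 1.69 and 1.47 against 1.40 and 1.11 FPKM. The glutamatergic marker eat-4 read 4.13 and 4.63 against 3.72 and 3.28 FPKM.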

Additional observations from a re-analysis of the deposited data

How the results depend on the processing

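None of the 10 GABA genes, their accessions or the wider pathway passed the threshold under any alternative run, and the smallest adjusted p of a member was 0.288, for unc-49 without mutant replicate 2, where its accession NM_001083179 had 0.0995. Over all genes the 19 calls became 10 with a pseudocount of 0.1, 86 without the trend, 3 with no filter, 9 over single accessions, and 0 with at least 1 FPKM in all 4 libraries, with protein-coding genes alone or with sums over accessions above 0 in all 4 libraries; leaving out 1 library gave 0 to 10. With the replicate block the count was 0, and with a crossed pairing, added because the deviations of same-numbered libraries correlated at -0.19, it was also 0; a block cannot move a fold change here. Quantile normalization turned gta-1 to 0.058, and sums over accessions above 0 in all 4 libraries turned unc-30 to -0.66 and unc-49 to 0.037; the cause was not tested for gta-1. With each library left out, log2 fold changes ran from -0.14 to 0.70 for snf-11 and its accession, -0.31 to 0.25 for gta-1, -1.92 to 0.073 for unc-49, -0.20 to 0.33 for exp-1 and its accession and -0.57 to 0.077 for frm-3. Among accessions they ran from -0.33 to 0.11 for NM_001307162, -0.25 to 0.63 for NM_069461, -1.43 to 0.10 for NM_001026105, -0.47 to 1.24 for NM_001026106, -0.27 to 0.98 for NM_001268772, -0.21 to 0.29 for NM_001027613 and -5.24 to 0.14 for NM_001083179. Fits with 1 library left out have 1 residual degree of freedom in place of 2, and the lone library is assumed to vary like the other genotype. The depth behind exp-1, gab-1 and unc-46 was an estimated 33 to 58, 50 to 73 and 44 to 112 fragments per library.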
